A study of Mus musculus with 14 samples.

Results

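Elastic fibers give arteries and connective tissue their recoil, and 9 genes that encode their parts and the proteins that assemble and crosslink them were followed here by single-nucleus (sn)RNAseq of brain vascular fragments. The genes were listed by name, as *Eln*, *Fbln1*, *Fbln2*, *Fbln5*, *Fbn1*, *Emilin1*, *Lox*, *Loxl1* and *Mfap4*, and all 9 were among the 26528 genes of the brain matrix. The study asked what loss of TGF-beta signaling in endothelial cells (ECs) does to retinal and brain vessels. The CKO mice were *Cdh5CreER;Tgfbr1 CKO/-* (named *VEcadCreER;Tgfbr1CKO/-* in the sample labels), with 1 conditional and 1 null allele of the type I TGF-beta receptor gene *Tgfbr1*, and received 4-hydroxytamoxifen (4HT) from P3 to P5. Their Cre is driven from the *Cdh5* (VE-cadherin) promoter and therefore acts in ECs, while the null allele is carried by every cell type. Controls are labeled wild type. The authors call their controls, those of the brain snRNAseq included, phenotypically wild type, and for retinas they give *Cdh5CreER;Tgfbr1 CKO/+*, with Cre and 1 conditional allele, as a usual genotype. The exact genotype of the snRNAseq controls and whether they received 4HT were not found. Mice were P14 in the study's methods and young adults in the sample labels. There was 1 brain library per genotype, each from the Ficoll-enriched vascular fragments of 2 brains, so no difference between the genotypes has a replicate check and none was tested. The 12 whole-retina libraries, 1 control and 11 CKO, enter at the end.

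An elastic fiber has a core of crosslinked elastin, the product of *Eln*, laid onto a scaffold of fibrillin microfibrils. Fibulins and emilins bring elastin to the microfibrils, and lysyl oxidases join the elastin chains through their lysines. In arteries most elastin is known to be made by smooth muscle cells, with the innermost lamina lying directly beneath the endothelium, and TGF-beta is known as an inducer of many matrix genes.

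The control brain library holds 16649 nuclei and 49798325 UMIs (unique molecular identifiers, each counting 1 captured RNA molecule), and the CKO library 14675 nuclei and 31033373 UMIs. The nuclei fall under 21 cell type labels, and 2 cell barcodes occur in both libraries. *Xist*, the RNA of the inactive X chromosome, was at 1963 CPM (UMIs of a gene per 1000000 UMIs) in the control library and at 1.29 CPM in the CKO library. The Y genes *Ddx3y*, *Uty*, *Kdm5d* and *Eif2s3y* summed to 189 and 421 CPM. The control library therefore held nuclei with and nuclei without a Y chromosome, the CKO library almost no *Xist*, and sex and genotype cannot be told apart. *Tgfbr1* itself was at 69.1 CPM (401 UMIs) in control ECs and 62.9 CPM (431 UMIs) in CKO ECs, with overlapping intervals of 62.5 to 76.2 and 57.1 to 69.1 CPM. UMIs here count 3′ ends of transcripts, and their place relative to the deleted part was not found in the labels or methods, so the *Tgfbr1* level checks nothing about the deletion.

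Values for a cell type are UMIs summed over its nuclei in a library and divided by all UMIs of those nuclei, as CPM. Every interval printed is a 95% one and accounts for counting error alone (exact Poisson for levels, exact binomial for shares, exact conditional binomial for CKO over control ratios). A gene was called past 2-fold where its ratio was at least 2-fold in either direction and it had at least 20 UMIs over both libraries. UMI counts at 3′ ends are not scaled by transcript length, and levels are compared between libraries and labels for the same gene, not between genes.

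ECs were represented by 2475 control nuclei (5801552 UMIs, median 1347 per nucleus) and 2944 CKO nuclei (6851854 UMIs, median 1491). vSMCs, the vascular smooth muscle cells, numbered 449 nuclei (1546680 UMIs) and 103 nuclei (258349 UMIs), and pericytes 201 nuclei (121845 UMIs) and 22 nuclei (9213 UMIs). The label glia covered 1227 nuclei (1732742 UMIs) and 419 nuclei (499193 UMIs). The CKO sums of the mural and glia labels are thus much smaller than those of the controls, and their intervals wider.

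The labels were read against marker lists. In nuclei labeled ECs all 10 EC markers had UMIs, with a summed level of 14509 CPM in control and 11515 CPM in CKO and *Flt1* the most abundant. The same nuclei also held 8 of 8 pericyte markers at 8258 and 6970 CPM, mostly *Rgs5* (5631 and 4831 CPM), and a pericyte marker UMI was found in 85.4% and 95.4% of them. Nuclei labeled ECs thus held UMIs of pericyte markers, whose source was not tested. In nuclei labeled vSMCs 9 of 9 vSMC markers summed to 5463 and 5005 CPM, led by *Acta2*, beside pericyte markers at 6202 and 5833 CPM, EC markers at 6086 and 6046 CPM and fibroblast markers at 2545 and 4482 CPM. In nuclei labeled pericytes the pericyte markers summed to 26649 and 14219 CPM, with *Higd1b* and *Ndufa4l2* at 0 in the CKO library.

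The label glia went against its name. Its leading lists were the meningeal and arachnoid markers, at 10585 CPM in control and 11216 CPM in CKO, mostly *Ptgds*, and the fibroblast markers, at 8616 and 7849 CPM, led by *Cped1*. All 11 fibroblast markers had UMIs in both libraries, among them *Col1a2* at 1602 and 1703 CPM. Astrocyte markers summed to 2066 and 1871 CPM, against 16270 and 17005 CPM in nuclei labeled astrocytes. These nuclei are called nuclei labeled glia below, a label whose leading markers are *Ptgds*, *Cped1* and collagen genes.

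In ECs, 5 of the 9 genes were past 2-fold. *Eln*, *Fbln5*, *Mfap4* and *Loxl1* were lower in CKO, beside 5.79% of the 13154 genes with at least 20 UMIs in ECs, and *Fbln1* was higher, beside 11.2% of them. *Fbln2*, *Fbn1*, *Emilin1* and *Lox* stayed within 2-fold. The median log2 ratio of the 9 genes was -0.42 (with 0.5 UMIs added to each count), against 0.13 over all 13154 genes. The 9 genes were chosen with earlier results of these data known, so their count and median are a description and no independent test.

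*Eln*, the gene of the elastin core, was at 168 CPM (interval 158 to 179, 974 UMIs) in control ECs and at 15.6 CPM (12.8 to 18.9, 107 UMIs) in CKO ECs. The CKO level was 10.8-fold lower (8.80 to 13.3). Its ratio ranked 30th from the lowest among the 13154 genes. As described below, most of the control UMIs came from a few nuclei, so this fold is less certain than its interval.

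The fibulins, which bind elastin and microfibrils, moved in different directions. *Fbln5*, the fibulin that carries elastin to the microfibril and to the lysyl oxidase *Loxl1*, was at 50.2 CPM (291 UMIs) in control and 11.5 CPM (79 UMIs) in CKO. It was 4.35-fold lower (3.38 to 5.65). *Fbln1*, a fibulin of basement membranes and elastic fibers, was at 15.3 CPM (89 UMIs) and 37.9 CPM (260 UMIs), a ratio of 2.47 (1.94 to 3.18). *Fbln5* and *Fbln1* therefore stood on opposite sides of the 2-fold limits in the same nuclei. *Fbln2*, which is found beneath the endothelium with *Fbln5*, was at 74.3 CPM (431 UMIs) and 85.8 CPM (588 UMIs), a ratio of 1.16 (1.018 to 1.31). *Emilin1*, a glycoprotein at the boundary of elastin and microfibrils, was at 27.9 CPM (162 UMIs) and 28.9 CPM (198 UMIs), a ratio of 1.03 (0.837 to 1.28). Over all EC nuclei, neither of the latter genes differed by more than 1.31-fold within counting error. In EC nuclei without a fibroblast marker UMI the ratios were higher, at 1.55 (1.18 to 2.05) for *Fbln2* and 1.89 (1.18 to 3.10) for *Emilin1*.

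Of the microfibril genes, *Fbn1*, which encodes fibrillin-1, was low in ECs, at 6.72 CPM (39 UMIs) in control and 8.90 CPM (61 UMIs) in CKO. Its ratio of 1.32 had an interval of 0.872 to 2.03, so no difference was detectable at this depth. *Mfap4*, a microfibril-associated protein, was at 9.31 CPM (54 UMIs) and 2.63 CPM (18 UMIs), 3.54-fold lower in CKO (2.05 to 6.42). The lysyl oxidases rested on fewer UMIs. *Lox* was at 5.69 CPM (33 UMIs) and 4.23 CPM (29 UMIs), a ratio of 0.744 (0.436 to 1.26). *Loxl1*, whose enzyme is targeted to elastin, was at 4.65 CPM (27 UMIs) and 1.90 CPM (13 UMIs), 2.45-fold lower (1.22 to 5.18). The upper bounds of the *Mfap4* and *Loxl1* ratios, 0.489 and 0.818, lay below 1, and that of *Lox* did not. *Loxl1* had 40 UMIs in all and would not be counted with a minimum of 50. EC nuclei without a fibroblast marker UMI held 0 and 0 UMIs of *Mfap4* and 3 and 2 of *Loxl1*. Those without a vSMC marker UMI held 2 and 2 of *Mfap4* and 5 and 4 of *Loxl1*, too few to compare. Nuclei with a vSMC marker UMI held 52 and 16 of *Mfap4* and 22 and 9 of *Loxl1*. The source of this RNA was not tested.

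**Figure D1:**
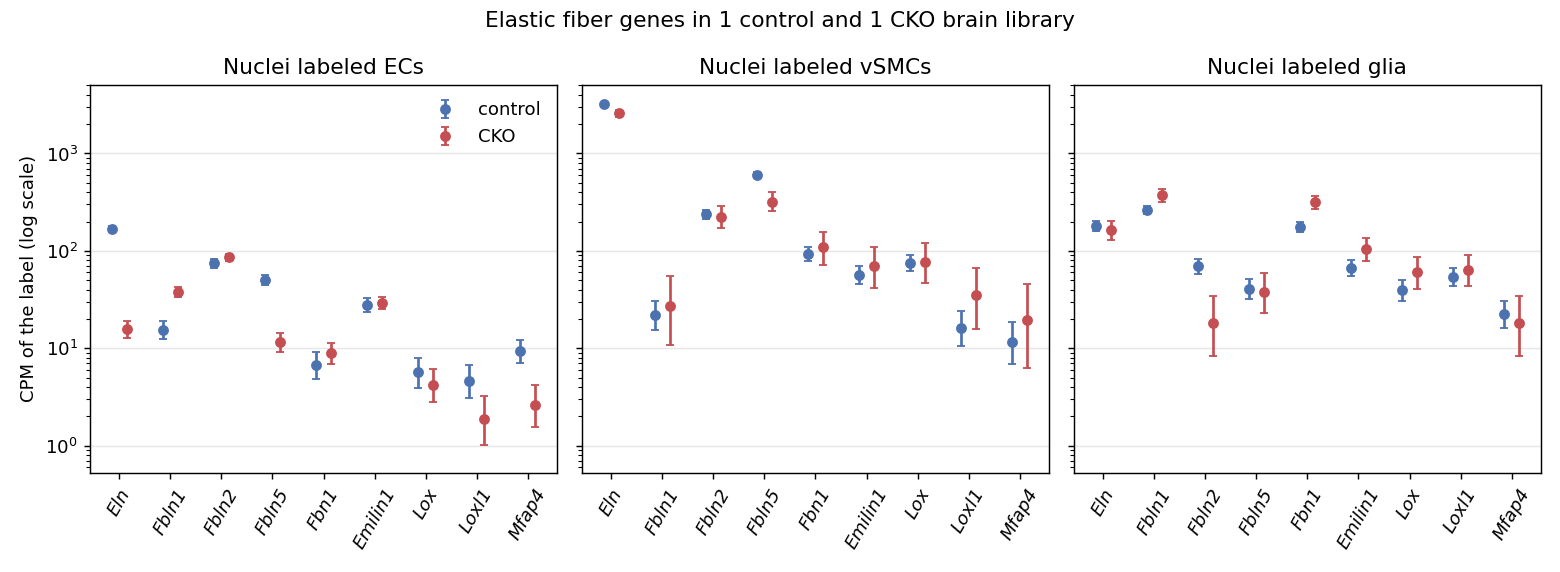
Levels of the 9 genes in nuclei labeled ECs, vSMCs and glia, as CPM on a log axis, with exact Poisson 95% intervals as bars (counting error only) and 1 control (blue) and 1 CKO (red) library. In ECs *Eln* lies at 168 CPM in control and 15.6 CPM in CKO and *Fbln1* at 15.3 and 37.9 CPM, while in vSMCs *Eln* lies at 3242 and 2574 CPM.

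The UMIs of *Eln* were unevenly spread over EC nuclei. In control, 153 of 2475 EC nuclei (6.18%) had at least 1 *Eln* UMI, and 5 of them, each with at least 20, held 619 of the 974 UMIs (63.6%). The richest nucleus held 210. In CKO, 46 of 2944 EC nuclei (1.56%) had *Eln*, and 1 nucleus held 43 of the 107 UMIs. A handful of nuclei therefore set much of the *Eln* level in both libraries, and its counting intervals are too narrow as a measure of how the level would vary among nuclei. In an alternative chosen after seeing the data, nuclei with at least 10 *Eln* UMIs (12 in control and 1 in CKO) were left out. *Eln* was then at 44.9 CPM and 9.34 CPM, 4.80-fold lower in CKO (3.64 to 6.42). The *Eln* UMIs themselves chose the nuclei left out, so this fold describes the rest and does not test the difference. The share of EC nuclei with a UMI was 3.96-fold lower (2.83 to 5.63).

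*Fbln5* was spread more evenly, and *Fbln1* the most evenly. For *Fbln5*, 133 control nuclei (5.37%) and 50 CKO nuclei (1.70%) had a UMI, and the richest held 15 and 5. For *Fbln1*, 72 control nuclei (2.91%) and 226 CKO nuclei (7.68%) had a UMI, and none had over 3. The higher *Fbln1* sum of the CKO library thus came from more nuclei with a UMI, and the lower sums of *Eln* and *Fbln5* from fewer nuclei as well as fewer UMIs in the richest ones.

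Shares of nuclei depend on depth, so each nucleus was also thinned to 500 UMIs, which left out 416 control and 343 CKO EC nuclei with fewer. *Eln* was then found in 2.53% of control EC nuclei (interval 1.89 to 3.299) and 0.461% of CKO EC nuclei (0.239 to 0.805). *Fbln5* was found in 2.23% (1.64 to 2.97) and 0.423% (0.211 to 0.755), and *Fbln1* in 0.729% (0.408 to 1.199) and 2.38% (1.83 to 3.05). None of these 3 pairs of intervals overlapped. Glut_0 is the most numerous neuron label, and these genes are expected to be absent there. Its thinned shares of *Eln* were 0.145% (0.0300 to 0.424) in control and 0% in CKO. Those of *Fbln5* and *Fbln1* were 0% in both libraries. By the exact interval, a share of 0% allows up to 0.178% in control and 0.126% in CKO. Median depths before thinning were 5004 and 2314 UMIs in Glut_0, deeper than in ECs. The EC shares of these genes therefore lay above the level found in neurons of the same library.

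**Figure D2:**
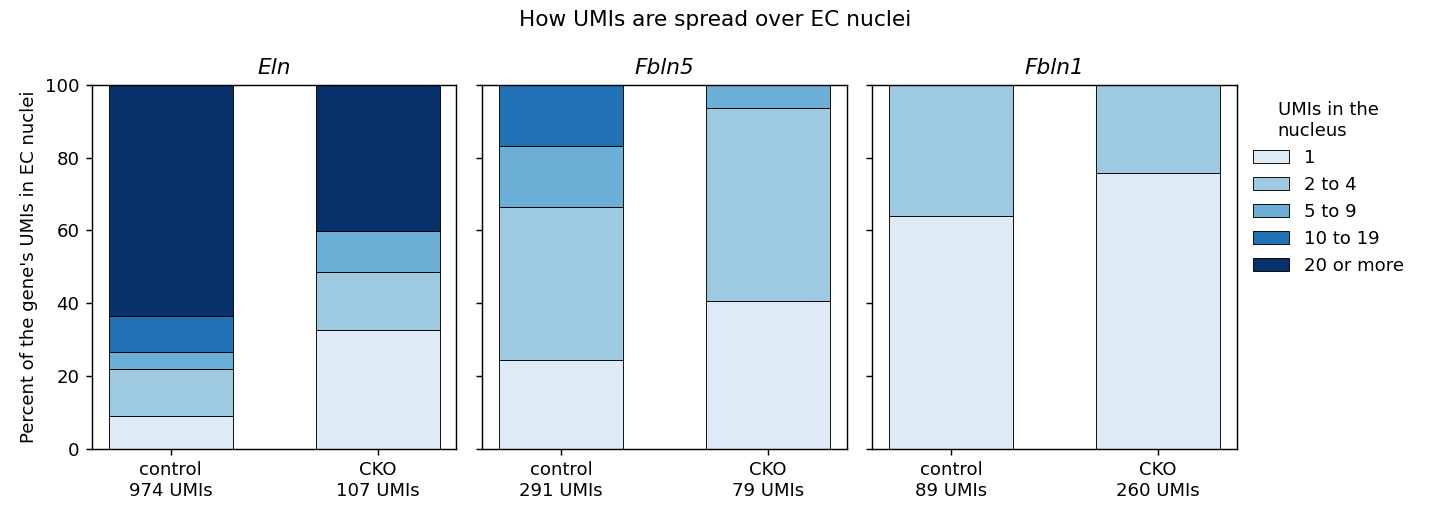
Percent of the UMIs of *Eln*, *Fbln5* and *Fbln1* in EC nuclei that lie in nuclei with 1, 2 to 4, 5 to 9, 10 to 19, or 20 or more UMIs of the gene, for the control and CKO library. In control, 63.6% of *Eln* UMIs lie in nuclei with 20 or more, while no nucleus has over 3 UMIs of *Fbln1*.

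The EC nuclei rich in *Eln* held markers of several kinds. All 12 control EC nuclei with at least 10 *Eln* UMIs had a UMI of an arterial marker, against 61.3% of the 2322 nuclei without *Eln*. Venous and fibroblast marker UMIs were each found in 11 of the 12, against 62.9% and 32.9%, and a vSMC marker UMI in 5 of the 12, against 33.7%. A cycling marker UMI was found in 7 of the 12, against 12.4%. A pericyte marker UMI was found in 3 of the 12, against 85.4%, and *Fbln5* in 10 of the 12, against 3.14%. Of the 141 control nuclei with 1 to 9 *Eln* UMIs (median depth 2898 UMIs), 87.2% had an arterial, 85.1% a venous and 77.3% a fibroblast marker UMI. A vSMC marker UMI was found in 74.5% of the 141, a pericyte one in 90.8% and a cycling one in 25.5%. The 12 nuclei thus differed from EC nuclei without *Eln* in more than *Eln*, and RNA of fibroblasts or smooth muscle in the 12 cannot be told apart from RNA of their own. Their median depth, 692.5 UMIs, was below the 1296 UMIs of nuclei without *Eln*. Over all control EC nuclei, *Fbln5* was found in 39.2% of the 153 nuclei with *Eln* and in 3.14% of the others, and in CKO in 28.3% of 46 and 1.28% of the others. The nuclei with *Eln* were deeper as a whole (median 2778 against 1296 UMIs in control and 4117 against 1479 in CKO), and the part of depth in these latter shares was not tested.

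The EC nuclei were then split by arterial markers. In nuclei with at least 1 arterial marker UMI (1559 control and 1912 CKO nuclei), *Eln* was at 199 CPM in control and 18.1 CPM in CKO, 11.0-fold lower. All 12 control nuclei with at least 10 *Eln* UMIs were among these, so this fold also rests in large part on a few nuclei. In the 916 and 1032 nuclei with none *Eln* was at 27.3 CPM (29 UMIs) and 4.08 CPM (5 UMIs), a ratio of 0.150 (0.0452 to 0.391). *Fbln5* was almost confined to the first kind, which held 289 of its 291 control UMIs and all 79 of its CKO UMIs. *Fbln1* was not: it was at 16.0 and 37.0 CPM in nuclei with arterial markers, and at 12.2 CPM (13 UMIs) and 42.5 CPM (52 UMIs) in nuclei without. *Eln* was thus lower and *Fbln1* higher in CKO in both kinds of nuclei, while *Fbln5* could be compared only in nuclei with arterial markers. The arterial markers themselves summed to 978 CPM in control and 944 CPM in CKO ECs, led by *Dll4*. In nuclei labeled vSMCs they summed to more, at 2336 and 2408 CPM. A UMI of this list thus does not by itself show arterial endothelium. Finding such a UMI also depends on depth, whose part in the split was not tested.

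The ratios were also taken by UMIs of vSMC, fibroblast and pericyte markers in EC nuclei. At the depth of these nuclei 0 marker UMIs does not show that such RNA was absent, and the subsets describe nuclei without separating sources of RNA. The vSMC markers were near the same level in the ECs of both libraries (367 and 341 CPM, with *Mylk* the most abundant and *Cnn1* at 0), and the fibroblast markers were at 1102 and 808 CPM, with *Col1a2* the most abundant and *Dcn* at 49.5 and 23.9 CPM. *Ptgds* was at 81.2 and 24.5 CPM in ECs, while its list of meningeal and arachnoid markers rose from 144 to 193 CPM with *Dpp4* leading in CKO. The choroid plexus markers, mostly *Ttr*, were at 1115 and 475 CPM in ECs and 4445 and 2028 CPM in vSMCs. Some markers of other cell types were therefore also lower in CKO ECs, by over 2-fold, and their part in the *Eln* difference was not tested. In the EC nuclei without a vSMC marker UMI (1582 control and 1735 CKO nuclei), *Eln* was at 296 CPM (676 UMIs) in control and 3.297 CPM (9 UMIs) in CKO, a ratio of 0.0111 (0.00508 to 0.0213). In control, 12 EC nuclei held 715 of the 974 *Eln* UMIs of all ECs, and only 5 of the 12 had a vSMC marker UMI. The control side of the ratio of 0.0111 thus rests in large part on a few nuclei, and its interval is too narrow. In EC nuclei with a vSMC marker UMI *Eln* was at 84.8 CPM (298 UMIs) and 23.8 CPM (98 UMIs), a ratio of 0.280 (0.221 to 0.354). Of the 107 *Eln* UMIs of CKO ECs, 98 thus lay in nuclei that also held a vSMC marker UMI. A single nucleus held 43 of these 98, so the ratio of 0.280 rests in large part on that nucleus. In EC nuclei without a fibroblast marker UMI, *Eln* was at 32.5 CPM (71 UMIs) in control and at 1 UMI in CKO, a ratio of 0.0138 (0.000345 to 0.0796), so these nuclei held only 71 of the 974 control UMIs. The nuclei without a pericyte marker UMI (362 and 134) held 626 of the 974 control UMIs and 43 of the 107 CKO UMIs, a ratio of 0.199 (0.143 to 0.271). All 43 of these CKO UMIs came from 1 nucleus, so the CKO side of this ratio rests on that nucleus alone. Its control side rests in large part on a few nuclei, as only 3 of the 12 nuclei above had a pericyte marker UMI. With the vSMC, pericyte and fibroblast markers all at 0 (340 and 119 nuclei, a subset chosen after seeing the data), control ECs held 22 *Eln* UMIs and CKO ECs 0. The interval of that comparison reaches a ratio of 0.585, short of a 2-fold difference.

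*Fbln5* and *Fbln1* kept their directions in these subsets. Without vSMC marker UMIs, *Fbln5* was 6.87-fold lower in CKO (69 and 12 UMIs) and *Fbln1* had a ratio of 4.12 (2.64 to 6.68, 24 and 118 UMIs). Without fibroblast marker UMIs, *Fbln5* was 6.37-fold lower (50 and 8 UMIs) and *Fbln1* had a ratio of 7.69 (4.20 to 15.4, 12 and 94 UMIs). Of these intervals, only that of *Fbln1* without fibroblast markers lay apart from the interval for all EC nuclei. Per UMI of the vSMC markers, ECs held 0.458 *Eln* UMIs in control and 0.0458 in CKO, while vSMCs held 0.593 and 0.514. Cycling markers were higher in CKO ECs, at 526 CPM against 250 CPM, led by *Top2a*, and a UMI of one was found in 32.7% against 13.3% of nuclei. In EC nuclei without one, *Eln* was 6.36-fold and *Fbln5* 4.09-fold lower in CKO and *Fbln1* had a ratio of 2.77 (1.92 to 4.06).

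**Figure D3:**
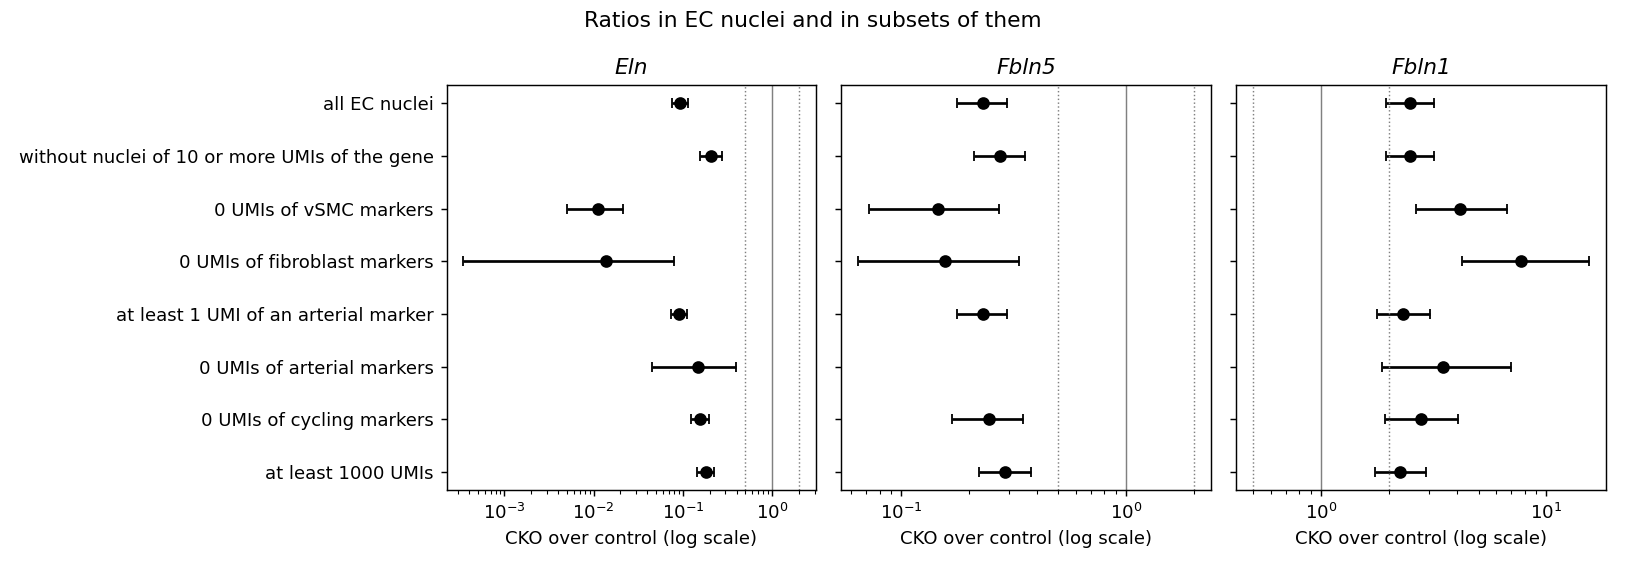
CKO over control ratios of *Eln*, *Fbln5* and *Fbln1* in all EC nuclei and in subsets of them, on log axes whose ranges differ between panels, with exact conditional binomial 95% intervals (counting error only), a solid line at a ratio of 1 and dotted lines at 2-fold. Every *Eln* and *Fbln5* ratio shown lies below 1 and every *Fbln1* ratio above it, and *Fbln5* is not shown without arterial markers, where it had 2 UMIs.

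Another 66 genes of elastic fibers were read by role, of which 64 were in the matrix and 52 had at least 20 UMIs in ECs. Of these, 12 were lower and 2 higher in CKO past 2-fold, beside 5.79% lower and 11.2% higher among all EC genes, shares that also stand beside the counts of each role below. The 52 genes had a median log2 ratio of -0.26 against 0.13 over all genes. The role lists too were chosen with earlier results of these data known, so their counts and medians are a description. The microfibril list stood lowest, with 6 of 15 genes lower, 1 higher and a median of -0.79. *Adamtsl2*, which binds fibrillin and modulates TGF-beta availability, was at 90.5 CPM in control and 10.8 CPM in CKO, 8.38-fold lower (6.56 to 10.8). *Adamtsl4*, which promotes fibrillin-1 fibril formation, was at 6.03 and 1.17 CPM (35 and 8 UMIs), 5.17-fold lower (2.35 to 12.9). *Fbn2*, the fibrillin of developing tissue, was at 8.27 and 3.06 CPM (48 and 21 UMIs), 2.70-fold lower (1.59 to 4.75). *Ltbp1*, which tethers latent TGF-beta to microfibrils, went the other way, at 6.03 and 28.0 CPM, with a ratio of 4.64 (3.23 to 6.86).

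Of 9 assembly genes with enough UMIs, 2 were lower and 1 higher. *Fn1*, the gene of fibronectin, on which microfibrils assemble, was at 1850 CPM in control and 503 CPM in CKO, 3.68-fold lower (3.54 to 3.82). *Tgfbi*, a matrix protein named for its induction by TGF-beta, was at 13.6 and 6.42 CPM, 2.12-fold lower (1.45 to 3.14). *Mmrn1*, which encodes multimerin-1 of the emilin family, was at 5.17 and 50.8 CPM, a ratio of 9.82 (6.76 to 14.8). *Mmrn1* and *Fbln1* were thus higher where *Eln*, *Fbln5* and *Fn1* were lower.

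None of the 7 crosslinking genes beyond the lysyl oxidases followed here was past 2-fold (median 0.27). Of 8 breakdown genes 2 were lower, both secreted serine proteases of the HtrA family. *Htra3* was at 176 CPM in control and 9.34 CPM in CKO, 18.8-fold lower (14.6 to 24.6), and *Htra1* at 97.6 and 36.3 CPM, 2.68-fold lower (2.31 to 3.13). Of 13 inhibitors and receptors with enough UMIs, 2 were lower and 0 higher. The 2 included *Itga8*, an integrin subunit, at 19.5 CPM in control and 9.49 CPM in CKO, with a ratio of 0.487 (0.353 to 0.667). Genes of fiber breakdown and genes of fiber assembly were therefore both among those lower in CKO ECs. The paper itself shows *Htra3* as a transcript decreased in mutant ECs. As the lists were chosen with earlier results of these data known, the place of *Htra3* among the lower genes is no independent result.

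In vSMCs the picture differed. *Eln* was at 3242 CPM (3153 to 3333, 5015 UMIs) in control and 2574 CPM (2382 to 2777, 665 UMIs) in CKO, a ratio of 0.794 (0.731 to 0.861). *Fbln5* was at 598 CPM (925 UMIs) and 321 CPM (83 UMIs), a ratio of 0.537 (0.424 to 0.673), just within 2-fold. Both genes were highest in vSMCs among all labels in both libraries, and neither passed 2-fold there. Whether the ratios of ECs and vSMCs differ was not tested. *Eln* was found in 81.1% (77.1 to 84.6) of the 449 control vSMC nuclei and 66.0% (56.0 to 75.1) of the 103 CKO nuclei, with medians of 1516 and 1103 UMIs per nucleus. Thinned to 500 UMIs per nucleus, the shares were 58.5% (53.5 to 63.4) and 52.9% (41.8 to 63.9) for *Eln* and 22.8% (18.7 to 27.2) and 15.3% (8.40 to 24.7) for *Fbln5*. At equal depth the intervals of both genes overlapped.

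Only *Loxl1* was past 2-fold in vSMCs, at 16.2 CPM (25 UMIs) and 34.8 CPM (9 UMIs), beside 4.7% of 10123 genes called higher. Its ratio of 2.16 had an interval of 0.885 to 4.77 that includes 1, so a difference was not detectable at this depth. None of the 9 genes was called lower, beside 8.82% of the genes. *Fbln2* (238 and 225 CPM), *Fbn1* (92.5 and 108 CPM), *Emilin1* (56.9 and 69.7 CPM), *Lox* (75.6 and 77.4 CPM), *Fbln1* (22.0 and 27.1 CPM) and *Mfap4* (11.6 and 19.4 CPM) had ratios from 0.944 to 1.66, and every one of their intervals included 1. With factors of the trimmed mean of M-values (TMM) in place of totals, which lowered every log2 ratio in vSMCs by 0.17, *Fbln5* passed 2-fold and *Loxl1* did not. The median log2 ratio of the 9 genes was 0.25 against 0.11 over all genes, and of the other elastic fiber genes 4 of 46 were lower and 1 higher.

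The vSMC sums were also uneven over nuclei. In control, 137 of 449 nuclei had at least 10 *Eln* UMIs and held 82.6% of them, and in CKO 20 of 103 nuclei held 73.2%. *Fbln5* had 420 of its 925 control UMIs in 19 nuclei with at least 10, and no CKO nucleus reached 10. A few nuclei thus held much of the *Fbln5* sum of control vSMCs. In vSMC nuclei with at least 2 vSMC markers (386 and 79 nuclei, chosen after seeing the data) the ratios were 0.773 for *Eln* and 0.577 for *Fbln5*. In the 63 and 24 nuclei with fewer, *Eln* was higher in CKO, at 1044 CPM (127 UMIs) and 2314 CPM (137 UMIs). Fibroblast markers were higher in CKO vSMCs (4482 against 2545 CPM, with *Col1a2* the most abundant), and their part in the vSMC sums was not tested. The *Eln* ratio of vSMCs therefore depended on which nuclei were taken.

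In nuclei labeled glia, *Fbln2* alone was past 2-fold. It was at 69.3 CPM (57.4 to 82.8, 120 UMIs) in control and 18.03 CPM (8.24 to 34.2, 9 UMIs) in CKO, 3.84-fold lower (1.96 to 8.60), beside 11.1% of 9816 genes called lower in that label. A UMI of *Fbln2* was found in 83 of 1227 and 8 of 419 nuclei. In the glia nuclei without vSMC markers it had 100 and 2 UMIs, a ratio of 0.0779 (0.00930 to 0.289). With nuclei of at least 1000 UMIs alone it had 51 and 6 UMIs, a ratio of 0.432 whose interval of 0.151 to 1.01 includes 1. The *Fbln2* ratio was thus below the 2-fold limit in both subsets, with counting error that reached 1 in the deeper nuclei. As 1080 of 1227 control and 361 of 419 CKO nuclei had no vSMC marker UMI, the first subset says little of the source of the RNA. In ECs the same gene had a ratio of 1.16.

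None of the 9 genes was called higher in nuclei labeled glia, beside 10.2% of all genes, although 3 had intervals above 1. *Fbn1* was at 176 CPM (305 UMIs) in control and 315 CPM (157 UMIs) in CKO, a ratio of 1.79 (1.46 to 2.17). *Fbln1* was at 263 CPM (455 UMIs) and 373 CPM (186 UMIs), a ratio of 1.42 (1.19 to 1.69), and *Emilin1* at 66.9 CPM (116 UMIs) and 104 CPM (52 UMIs), a ratio of 1.56 (1.10 to 2.18). By shares of nuclei with a UMI, at unequal depth, the ratios were 1.22 (0.962 to 1.55), 1.13 (0.910 to 1.40) and 1.29 (0.883 to 1.85). In the nuclei of at least 1000 UMIs they were 1.47 (1.12 to 1.91), 1.12 (0.864 to 1.43) and 1.91 (1.25 to 2.88). The intervals of *Fbn1* and *Emilin1* were thus above 1 in the sums and in the deeper nuclei, and that of *Fbln1* in the sums alone. Thinned shares of *Fbn1* were 8.90% (7.23 to 10.8) and 15.1% (10.9 to 20.2), without overlap, and the intervals of *Fbln1* and *Emilin1* overlapped.

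*Eln* was at 181 CPM (314 UMIs) and 162 CPM (81 UMIs) in nuclei labeled glia, a ratio of 0.895 (0.692 to 1.15). *Fbln5* was at 41.0 and 38.1 CPM (71 and 19 UMIs), a ratio of 0.929 (0.529 to 1.56). These intervals include 1. By shares of nuclei the *Eln* ratio was 0.691 (0.481 to 0.972), from 178 of 1227 and 42 of 419 nuclei with medians of 879 and 582 UMIs, and thinned shares were 6.87% (5.40 to 8.58) and 7.57% (4.62 to 11.6). The *Eln* ratio of this label thus depended on depth and measure. *Lox* (39.2 and 60.1 CPM), *Loxl1* (54.2 and 64.1 CPM) and *Mfap4* (22.5 and 18.03 CPM) had ratios of 1.53, 1.18 and 0.801, each with an interval that includes 1. Of the 47 other elastic fiber genes with enough UMIs in this label, 2 were higher and 3 lower, beside 10.2% higher and 11.1% lower among all genes. Their median log2 ratio was 0.34 against 0.10 over all genes.

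These 5 genes were spread over the roles. *Adamtsl3* was at 624 CPM in control and 1316 CPM in CKO, a ratio of 2.11 (1.91 to 2.33). *Adamts1*, a metalloprotease, was at 12.7 and 52.1 CPM (22 and 26 UMIs), a ratio of 4.10 (2.24 to 7.59). *Itga8* was at 127 and 20.0 CPM (220 and 10 UMIs), 6.34-fold lower (3.38 to 13.4). *Adamts6*, a metalloprotease that acts on microfibrils, was 2.12-fold lower (148 and 70.1 CPM), and *Postn*, the gene of periostin, which helps activate lysyl oxidase, was 2.12-fold lower (46.7 and 22.0 CPM, 81 and 11 UMIs). In ECs *Itga8* and *Adamts6* were also lower past 2-fold, whereas *Adamtsl3* was lower there, on 13 and 7 UMIs with an interval that includes 1.

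Pericytes gave no comparison. None of the 9 genes reached 20 UMIs over both libraries, and the highest were *Eln*, with 13 UMIs (107 CPM) in control and 0 in CKO, and *Emilin1*, with 9 and 1. In the 9213 UMIs of CKO pericytes 1 UMI is 109 CPM and a floor of 3 UMIs is 326 CPM, above the control level of *Eln*. A loss of these genes from pericytes was therefore not detectable at this depth.

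Across all 21 labels, the 9 genes had different leading sources. *Eln* was highest in vSMCs, followed in control by nuclei labeled glia (181 CPM, 162 to 202) and ECs (168 CPM, 158 to 179), whose intervals overlap, and in CKO by nuclei labeled glia (162 CPM) with ECs no longer among the first 5 labels. vSMCs held 77.0% of all *Eln* UMIs of the control library and 70.9% of those of the CKO library, and ECs 15.0% and 11.4%. *Fbln5* was highest in vSMCs, and ECs were in 2nd place in control (50.2 CPM, 44.6 to 56.3, overlapping nuclei labeled glia at 32.0 to 51.7) and in 5th in CKO (11.5 CPM), where CP_8, a label whose fuller name was not found, was in 2nd (53.1 CPM, 37.6 to 72.9). By level, ECs therefore stood lower among the labels in CKO for both genes.

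*Fbln2* was highest in vSMCs in both libraries, ahead of ECs (67.4 to 81.6 CPM in control) and nuclei labeled glia (57.4 to 82.8 CPM), whose intervals overlap there. The ECs held 45.9% of its UMIs in control and 88.6% in CKO. *Fbln1* was highest in nuclei labeled glia (263 and 373 CPM), with ECs in 5th place in control and 3rd in CKO, and the ECs held 12.7% and 53.6% of its UMIs. These shares of a library also follow the number of nuclei under each label, which differed between the libraries. The places of ECs for *Fbln1* rest on small counts in other labels. Pericytes, above ECs in both libraries, had 2 and 2 *Fbln1* UMIs. In CKO, vSMCs and CP_8, below ECs there, had 7 and 11. *Fbn1* was high outside the vessel wall. It was at 215 CPM (196 to 235) in CP_8, 190 CPM (155 to 231) in OPCs, the oligodendrocyte precursors, and 176 CPM (157 to 197) in nuclei labeled glia in control, with overlapping intervals. In CKO nuclei labeled glia came first (315 CPM, 267 to 368), and their interval overlapped that of CP_8 (243 CPM, 208 to 282).

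*Emilin1* was higher in nuclei labeled glia than in vSMCs and ECs in both libraries, with overlapping intervals for glia (55.3 to 80.3 CPM) and vSMCs (45.6 to 70.1 CPM) in control. Pericytes stood above them on 9 and 1 UMIs, with intervals that overlap those of glia. *Lox* was highest in vSMCs (75.6 and 77.4 CPM) and next in nuclei labeled glia (39.2 and 60.1 CPM), with intervals that overlap in CKO only. *Loxl1* was highest in nuclei labeled glia (54.2 and 64.1 CPM), with CP_8 next at 44.9 and 44.7 CPM and overlapping intervals. The 2 lysyl oxidase genes thus had different leading labels. *Mfap4* was low throughout, at 22.5 and 18.03 CPM in nuclei labeled glia and 11.6 and 19.4 CPM in vSMCs, again with overlapping intervals.

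The genes whose levels over labels were most like those of *Eln* were sought over 38 sums of a label in a library with at least 100000 UMIs, among 14448 genes with at least 200 UMIs. By Pearson's r of log2(CPM + 1) they were *Acta2* (0.93), *Col1a2* (0.92), *Olfml2a* (0.91), *Col1a1* (0.90) and *Fbln5* (0.89). The sums share 2 libraries and differ in depth, and the r is a description over labels. Of the 5, *Acta2*, the smooth muscle actin gene, was at 62.4 and 56.0 CPM in ECs (ratio 0.898, 0.776 to 1.04), *Col1a1* at 197 and 131 CPM (0.665, 0.609 to 0.727) and *Olfml2a* at 9.14 and 9.19 CPM (1.01, 0.687 to 1.48). *Fbln5* was the single one of these 5 genes that was past 2-fold in ECs. *Lox* ranked 17th by the same measure and *Fbn1* 6939th.

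Gene positions are given on GRCm39. *Eln* lies on chromosome 5 (134731445 to 134776322, minus strand), *Fbln5* on chromosome 12 (101712556 to 101785429, minus strand) and *Fbln1* on chromosome 15 (85090150 to 85170737, plus strand). The remaining 6 genes lie on chromosomes 2 (*Fbn1*), 5 (*Emilin1*), 6 (*Fbln2*), 9 (*Loxl1*), 11 (*Mfap4*) and 18 (*Lox*). The 9 genes are thus spread over 8 chromosomes.

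*Fbln5* and *Fbln1* moved in opposite directions in ECs, and the 250 bases before their first start are shown for that reason, from RefSeq on GRCm38.p6, a build whose positions do not match the ones above. Promoters of 5 of the 9 genes were in the table used, at 7 starts. Both strands were searched for CAGAC and its reverse complement GTCTG, the core of a sequence bound by SMAD proteins, which carry the TGF-beta signal to DNA. Matches are in capitals. The windows are chr12:101819120-101819369, minus strand, for *Fbln5* and chr15:85205699-85205948, plus strand, for *Fbln1*.
Fbln5: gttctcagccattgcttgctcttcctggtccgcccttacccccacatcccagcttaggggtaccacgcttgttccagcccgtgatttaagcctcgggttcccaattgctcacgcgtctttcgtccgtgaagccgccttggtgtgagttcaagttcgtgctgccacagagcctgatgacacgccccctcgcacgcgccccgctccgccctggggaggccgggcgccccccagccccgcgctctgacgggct
Fbln1: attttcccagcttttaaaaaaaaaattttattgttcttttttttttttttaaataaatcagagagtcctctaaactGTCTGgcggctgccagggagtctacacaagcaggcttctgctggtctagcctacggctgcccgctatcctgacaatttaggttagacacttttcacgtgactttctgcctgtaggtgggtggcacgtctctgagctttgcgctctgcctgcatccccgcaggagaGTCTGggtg
The *Fbln1* window holds 2 matches, and the *Fbln5* window holds 0. The window of the second *Fbln1* start overlaps the first and holds the same 2 matches, and that of the second *Fbln5* start, which does not overlap, holds 2. *Emilin1*, within 2-fold in ECs, had 2, and *Fbln2* and *Fbn1* had 0. Of 32851 such windows over all genes 42.2% hold at least 1 match, so a match of this length is common, and it is a description of the letters and not of a bound site.

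Whole retina was read as a tissue with no EC label. The 9 genes summed to 36.7 CPM (34.6 to 38.9, 1137 UMIs) in the control library and to between 37.3 and 88.4 CPM in the 11 CKO libraries, with a median of 47.0 CPM. The highest, CKO replicate 4, holds 104 nuclei and 8 UMIs of these genes. From it and replicate 5, the libraries of batch 2, the authors also removed clusters of multiple nuclei. Without it the CKO libraries ran from 37.3 to 52.1 CPM, with a mean of 44.8 ± 5.11 CPM (SD, n = 10). Every CKO library was thus above the single control, but the 3 CKO libraries of the control's batch, at 37.3, 37.8 and 39.2 CPM, had intervals that overlap the control's. The libraries of batches 2 and 3 have no control, and there batch and genotype cannot be told apart.

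Most of the retinal sum was *Fbn1*, at 22.6 CPM (701 UMIs) in control and 22.3 to 23.7 CPM in CKO libraries of the same batch. *Eln* was at 6.94 CPM (215 UMIs) in control and at 6.45, 7.14 and 8.69 CPM in those 3, on both sides of the control and with overlapping intervals. *Fbln5* was at 0.484 CPM (15 UMIs) in control and 0.389 to 0.508 CPM in them. Fewer cells of a type and less RNA per cell cannot be told apart in a sum over a whole tissue, and at this level a change confined to ECs would not be detectable.

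**Figure D4:**
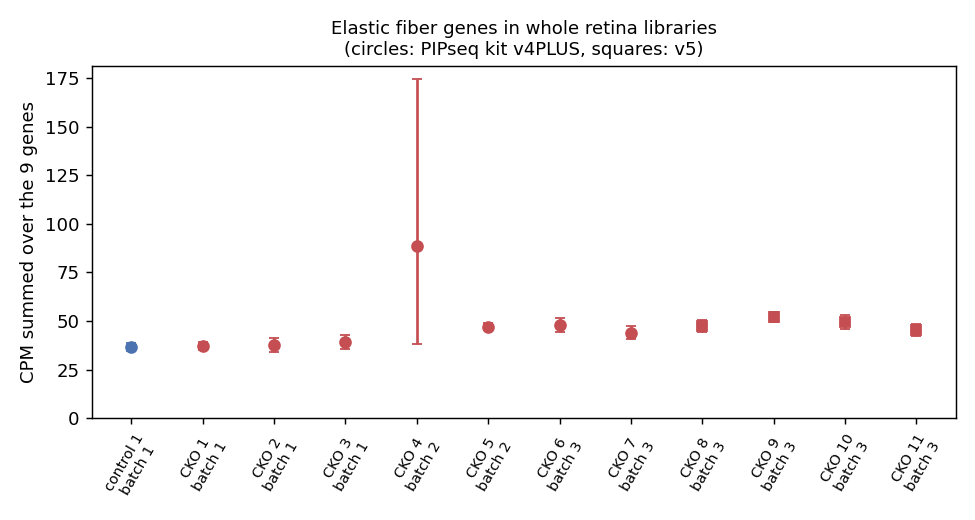
CPM summed over the 9 genes in each whole-retina library, with exact Poisson 95% intervals as bars (counting error only), for 1 control (blue) and 11 CKO (red) libraries by batch and PIPseq kit. The 3 CKO libraries of batch 1 lie at 37.3 to 39.2 CPM, beside 36.7 CPM in the control, and CKO replicate 4 rests on 8 UMIs.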

How the data were processed

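The authors deposited a count of UMIs for each gene in each nucleus, from PIPseq libraries, PIPseeker on GRCm39, CellBender for background and SOLO for doublets, and they also removed mixed nuclei by hand. The submitters' processing notes name mm10 and Seurat. Cell type labels, libraries and batches are the authors' annotation. Counts were summed per label and library and divided by their total. Ratios used no pseudocount and list medians 0.5 UMIs. Ratios kept counts of 0 as 0, and a floor of 3 UMIs served to describe the detection limit, as in pericytes. TMM factors came from edgeR 4.0.16 in R 4.3.3, and the rest from Python 3.11.15 with pandas 2.3.3, scipy 1.17.1 and numpy 2.4.6 (plots, matplotlib 3.10.9). The sums, ratios and intervals were checked on simulated data. Gene positions are from GENCODE M39.

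Genes named are the 9 members, *Tgfbr1*, *Xist*, 4 Y genes, in each role list the at most 4 genes of largest absolute log2 ratio among those past 2-fold in ECs or in nuclei labeled glia (not every such gene is named), the 5 genes most like *Eln*, *Dcn*, and the markers that lead each list or had no UMI. Members and lists were chosen with earlier results of these data known. Alternatives were folds of 1.5 and 4, minimums of 1 and 50 UMIs, TMM, nuclei with at least 1000 UMIs, thinning to 500 UMIs, means over nuclei, and subsets by markers.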

Additional observations from a re-analysis of the deposited data

Results flagged for a closer look

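*Fbln2* had a CKO over control ratio of 1.16 (1.018 to 1.31) in ECs and of 0.260 (0.116 to 0.511) in nuclei labeled glia, with intervals on opposite sides of 1. The difference between the labels was not tested, and each ratio rests on 1 library per genotype. The EC ratio was below 1 under 2 other settings.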

How the results depend on the processing

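In ECs, 5 genes were past 2-fold as reported, 2 past 4-fold, 4 with at least 50 UMIs, 4 as a mean over nuclei (*Loxl1* at 0.533) and 3 with thinned nuclei, where 5 genes kept 20 UMIs. In vSMCs the count of 1 became 3 past 1.5-fold, 0 past 4-fold, 0 with at least 50 UMIs, 2 in nuclei with at least 1000 UMIs, 2 with thinned nuclei and 0 as a mean over nuclei. In nuclei labeled glia the count of 1 became 4 past 1.5-fold, 0 past 4-fold, and 3 both with thinned nuclei and as a mean over nuclei. At their highest over the settings, the ratios in this label were 2.65 for *Lox* and 2.10 for *Fbn1*. The lowest for *Mfap4* was 0.434. In pericytes it was 0, or 6 with no minimum of UMIs. TMM factors lowered log2 ratios by 0.10 in ECs, 0.17 in vSMCs and 0.22 in nuclei labeled glia.

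All 15 other settings left the *Eln* ratio of ECs (0.0930) below 1. It was 0.0484 with thinned nuclei, 0.0474 as a mean over nuclei, and by nuclei kept 0.0111 (no vSMC markers), 0.0138 (no fibroblast markers), 0.199 (no pericyte markers), 0.150 (no arterial markers), 0.157 (no cycling markers) and 0.180 (at least 1000 UMIs). Without pericyte markers, 1 nucleus held all 43 CKO UMIs. In control, 12 nuclei held 715 of the 974 *Eln* UMIs of ECs, so the ratios without vSMC or pericyte markers rest in large part on few nuclei. Under settings added after seeing the data the *Eln* ratio was 0.280 (a vSMC marker, with 43 of 98 CKO UMIs in 1 nucleus) and 0.253 (shares of nuclei). It was 0.208 with no nuclei of 10 or more *Eln* UMIs, a choice made by the gene itself. With none of 3 marker lists it was 0, from 22 and 0 UMIs, with an upper bound of 0.585. The *Fbln5* ratio (0.230) was below 1 under 13 of 13, at 0.116 thinned, 0.122 as a mean over nuclei, 0.146 without vSMC and 0.157 without fibroblast markers, and 0.316 by shares of nuclei. The *Fbln1* ratio (2.47) was above 1 under 13 of 13, at 3.43 thinned, 4.23 as a mean over nuclei, 4.12 without vSMC, 7.69 without fibroblast and 3.47 without arterial markers, and 1.86 with a vSMC marker. The *Fbln2* ratio of nuclei labeled glia was 0.0779 without vSMC markers.

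*Fbln2* in ECs turned to 0.893 as a mean over nuclei and 0.610 without pericyte markers, and *Eln* in vSMCs to 2.22 in nuclei with under 2 vSMC markers. *Emilin1* in ECs (1.03) ran from 0.682 to 1.89 and was below 1 under 5 of 13 settings. The causes were not tested. Of the settings, 64 values with under 20 UMIs were left out. The mean retinal sum of the CKO libraries was 48.7 CPM, 44.8 CPM without replicate 4 and 38.1 CPM in batch 1. Depth limits pericytes most.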

Other observations

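*Loxl1* had an uneven source among neurons, noticed after its values were seen. In the label Glut_1 it was at 20.3 CPM (141 UMIs) in control and 15.1 CPM (67 UMIs) in CKO, 3rd and 4th among the labels, and 1 control nucleus held 74 of the 141 UMIs. The richest CKO nucleus of that label held 13, and 1 nucleus of Glut_17 in CKO held all 10 UMIs of that label.

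Over the whole libraries, without regard to label, *Eln* was at 131 CPM (6514 UMIs) in control and 30.2 CPM (938 UMIs) in CKO. vSMCs, where it was highest, made up 2.70% of control nuclei and 0.702% of CKO nuclei. How the enrichment of fragments set these shares was not tested.

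In the 21 control and 13 CKO vSMC nuclei without a pericyte marker UMI, *Eln* reached 31231 CPM (552 UMIs) and 14099 CPM (97 UMIs), a ratio of 0.451 (0.360 to 0.561). These nuclei, chosen after seeing the data, had few UMIs in all, and *Eln* took a larger part of them than in other vSMC nuclei.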
